A study of Homo sapiens with 96 samples.

Results

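The comparison described here is the KDM2B degron at 8 h of ligand. K562 cells, human leukaemia cells that keep erythroid and megakaryocytic traits, carried KDM2B fused to mAID, a mini auxin-inducible degron tag. RNA of 3 libraries from cells given 5phIAA, the small-molecule ligand that triggers destruction of mAID-tagged proteins, for 8 h was set against RNA of 3 libraries from untreated cells of the same line. These 6 libraries were taken by their column names and belong to a time course of 15 libraries, with 3 each for untreated cells and for 2, 8, 24 and 72 h of ligand. The whole series holds 96 libraries. All 15 libraries share the tagged KDM2B, and the untreated libraries carry the tag too. The sources used here give neither the ligand dose, nor the number of clones behind the line, nor a measurement of KDM2B protein. The time course has no vehicle group and no untagged group, so that loss of KDM2B, the ligand itself and the handling of the cells cannot be told apart in this comparison. Nothing in the labels says that the 3 libraries of a group came from separate cultures, and the p-values then measure only the spread between these libraries, which may be technical.

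KDM2B is the CpG-binding subunit of PRC1.1, a variant Polycomb repressive complex 1. Its CxxC zinc finger binds unmethylated CpG dinucleotides, and it brings PCGF1, BCOR or BCORL1 and the RING1 ubiquitin ligases to CpG islands, where the ligases place ubiquitin on histone H2A. In blood-forming cells PRC1.1 is known for holding developmental and differentiation genes at low expression, and BCOR is mutated in some leukaemias.

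Library totals ran from 10.43 to 19.91 M counts at 8 h and from 12.19 to 13.68 M counts in untreated cells, and mitochondrially encoded genes took 0.821% to 1.06% of the counts at 8 h and 0.930% to 1.35% in untreated cells. Of 12 K562 markers, 11 exceeded 1 CPM (counts per 1000000 of the library), and HBE1 was the exception. The summed level of 23 lymphoid markers was 11.9 to 13.9 CPM at 8 h and 11.4 to 14.9 CPM in untreated cells, with CD8A, CD8B, GNLY, GZMB and MS4A1 at 0 in all 6 libraries. Over 28 myeloid genes the sum was 170 to 200 CPM at 8 h and 168 to 190 CPM in untreated cells, with ELANE, MPO, CTSG, IRF8, CSF2RA and FCGR1A at 0. The 19 fibroblast and epithelial markers summed to 468 to 480 CPM at 8 h and 368 to 423 CPM in untreated cells, with EPCAM, KRT8, KRT18, KRT19 and MUC1 over 1 CPM and KRT14 and KRT5 at 0. The part of these markers in the results was not tested. These sums are CPM of the library total.

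KDM2B RNA itself was not lost. It measured 87.5, 82.6 and 85.8 CPM in the 8 h libraries, against 73.0, 70.4 and 81.6 CPM in untreated cells, a log2 fold change of 0.18 (adjusted p = 0.151). The lowest 8 h library lay above the highest untreated one, and a degron acts on the protein, so the RNA does not check its loss. BCOR, the corepressor scaffold of PRC1.1, had 358, 356 and 383 CPM at 8 h, against 252, 253 and 255 CPM in untreated cells. The groups did not overlap, and the log2 fold change of 0.53 (adjusted p = 1.09e-05) lay under the fold threshold of 0.585 that was used to call a gene. BCORL1, its paralogue, had a log2 fold change of 0.44 (adjusted p = 0.0054), also under that threshold. PCGF1, the PRC1.1-defining RING finger partner, had 11.2, 11 and 12.7 CPM at 8 h, against 10.9, 11.4 and 10.1 CPM in untreated cells (log2 fold change 0.10, adjusted p = 0.681), and these groups overlapped. None of the 10 PRC1.1, 12 canonical PRC1, 12 other variant PRC1, 13 PRC2 or 9 H2A deubiquitinase genes tested was called. These lists had untreated medians of 39.2 to 138 CPM. Of the 7356 protein-coding genes above 20 CPM there, 44 were called higher. Without untreated library 3, 1 canonical PRC1 gene was called.

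Most genes called at 8 h rose, and most of these had few counts in untreated cells. Of 14524 genes tested with edgeR's quasi-likelihood test, 616 or 4.24% were called, which took an adjusted p under 0.05 together with a log2 fold change of more than 0.585 in either direction. Of these, 535 genes (3.68% of those tested) were higher and 81 (0.558%) were lower, while the median log2 fold change of all genes was -0.01. The groups did not overlap in 527 of the 535 higher genes and 78 of the 81 lower ones, against 3992 of all 14524 genes tested. The risen genes had a median of 2.70 CPM in untreated cells, the fallen genes 3.48 CPM and all genes tested 22 CPM. The median rise was 2.02-fold, with 271 genes over 2-fold and 46 over 4-fold, and 5 of the risen genes had only 1 to 3 counts in the 3 untreated libraries together. Without 8 h library 2, 403 genes were called (361 higher, 42 lower). In bulk RNA, more RNA per cell and more cells that express a gene cannot be told apart.

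**Figure D1:**
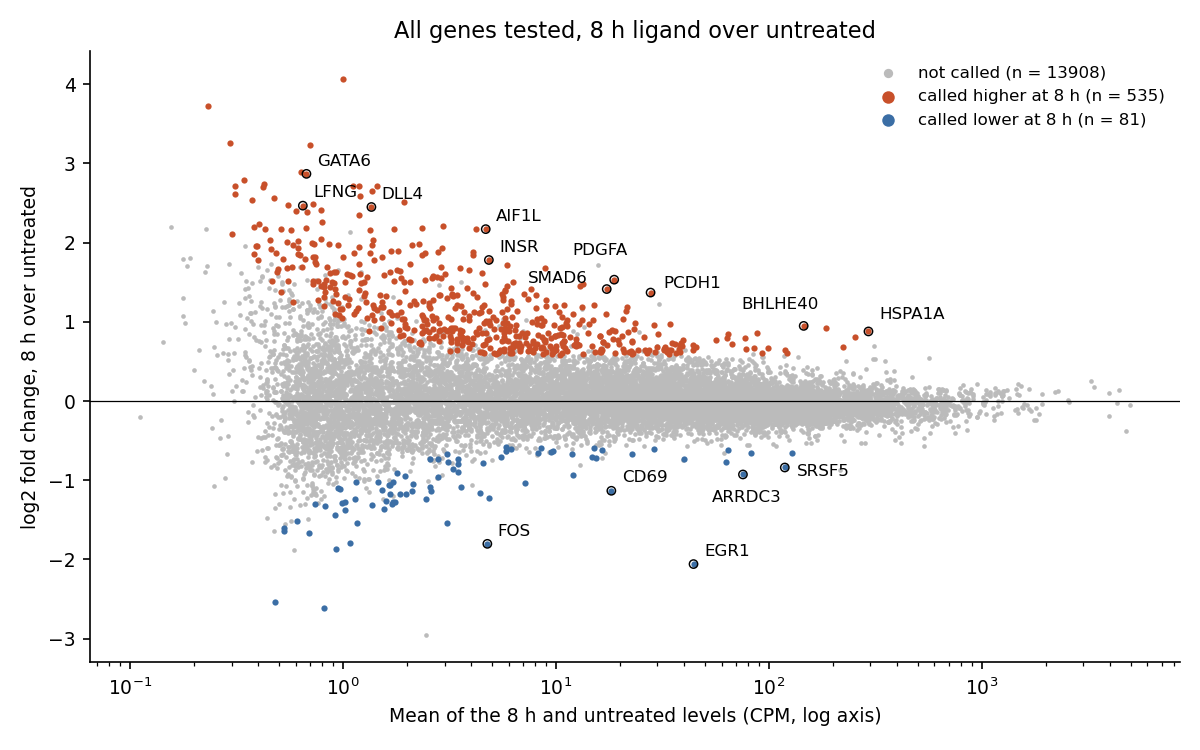
Log2 fold change at 8 h over untreated (vertical axis) against the mean level of the 8 h and untreated groups in CPM (horizontal axis, log scale), 1 point a gene; red marks the 535 genes called higher, blue the 81 called lower and grey the rest. The red points lie mostly at low levels, while EGR1 and SRSF5 lie further right among the genes called lower.

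The rises with the largest folds among genes of at least 2 CPM, without overlap between the groups, fell on 16 genes. Their folds ran from 3.22 to 4.62, and their untreated means from 0.832 to 2.76 CPM. FNDC4, a secreted fibronectin type III domain protein (chr2:27491883-27495200, hg38), measured 3.98, 5.22 and 5.38 CPM in the 8 h libraries, against 0.867, 0.994 and 1.30 CPM in untreated cells. All 3 of its 8 h values lay well above the untreated ones, with a log2 fold change of 2.21 (SE 0.257, adjusted p = 1.47e-05). CAMK2N1, an inhibitor of the calcium/calmodulin-dependent kinase CaMKII, had 3.53, 3.58 and 4.44 CPM at 8 h, against 0.940, 0.828 and 0.729 CPM in untreated cells (log2 fold change 2.18, SE 0.216, adjusted p = 2.46e-06). AIF1L, an actin-binding protein, had 6.76, 8.35 and 7.84 CPM at 8 h, against 1.45, 1.82 and 1.86 CPM in untreated cells (log2 fold change 2.17, SE 0.176, adjusted p = 2.27e-07). In both genes each group was tight and the groups stood apart. PLEKHO1, a pleckstrin homology domain protein that binds casein kinase 2, had 7.06, 8.01 and 5.57 CPM at 8 h, against 1.16, 1.49 and 2.02 CPM in untreated cells (log2 fold change 2.17).

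Several of the 16 act at the cell surface or in the matrix. ACE, the angiotensin-converting enzyme, measured 4.43, 3.28 and 5.48 CPM at 8 h, against 0.506, 0.994 and 2.02 CPM in untreated cells (log2 fold change 1.89, SE 0.313, adjusted p = 0.000476). PODXL, a sialomucin of podocytes and blood progenitors, had 3.08, 3.63 and 4.25 CPM at 8 h, against 1.45, 0.497 and 0.729 CPM in untreated cells (log2 fold change 1.99, SE 0.339, adjusted p = 0.000599). Untreated values of both genes were low and spread over more than a 2-fold range. That none reached the lowest 8 h value was a condition of the choice of genes. AMIGO1, a leucine-rich repeat adhesion protein, had narrow groups, with 9.17, 8.85 and 9.16 CPM at 8 h, against 2.46, 3.15 and 2.67 CPM in untreated cells (log2 fold change 1.72, SE 0.168, adjusted p = 2.16e-06). The matricellular protein TINAGL1 (log2 fold change 1.97) and the extracellular glycoprotein EMILIN2 (1.84) rose as well. FHDC1, a formin that acts on actin and microtubules, had 6.46, 6.26 and 6.52 CPM at 8 h, against 1.66, 1.57 and 1.94 CPM in untreated cells (log2 fold change 1.89, SE 0.185, adjusted p = 2.16e-06). The remaining rises were those of KIAA1549 (1.94), the BCL2 family member BOK (1.86), RASSF8 (1.84), the G-protein subunit GNB5 (1.73), the deubiquitinase family member USP13 (1.69) and INSR, described with the receptors.

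**Figure D2:**
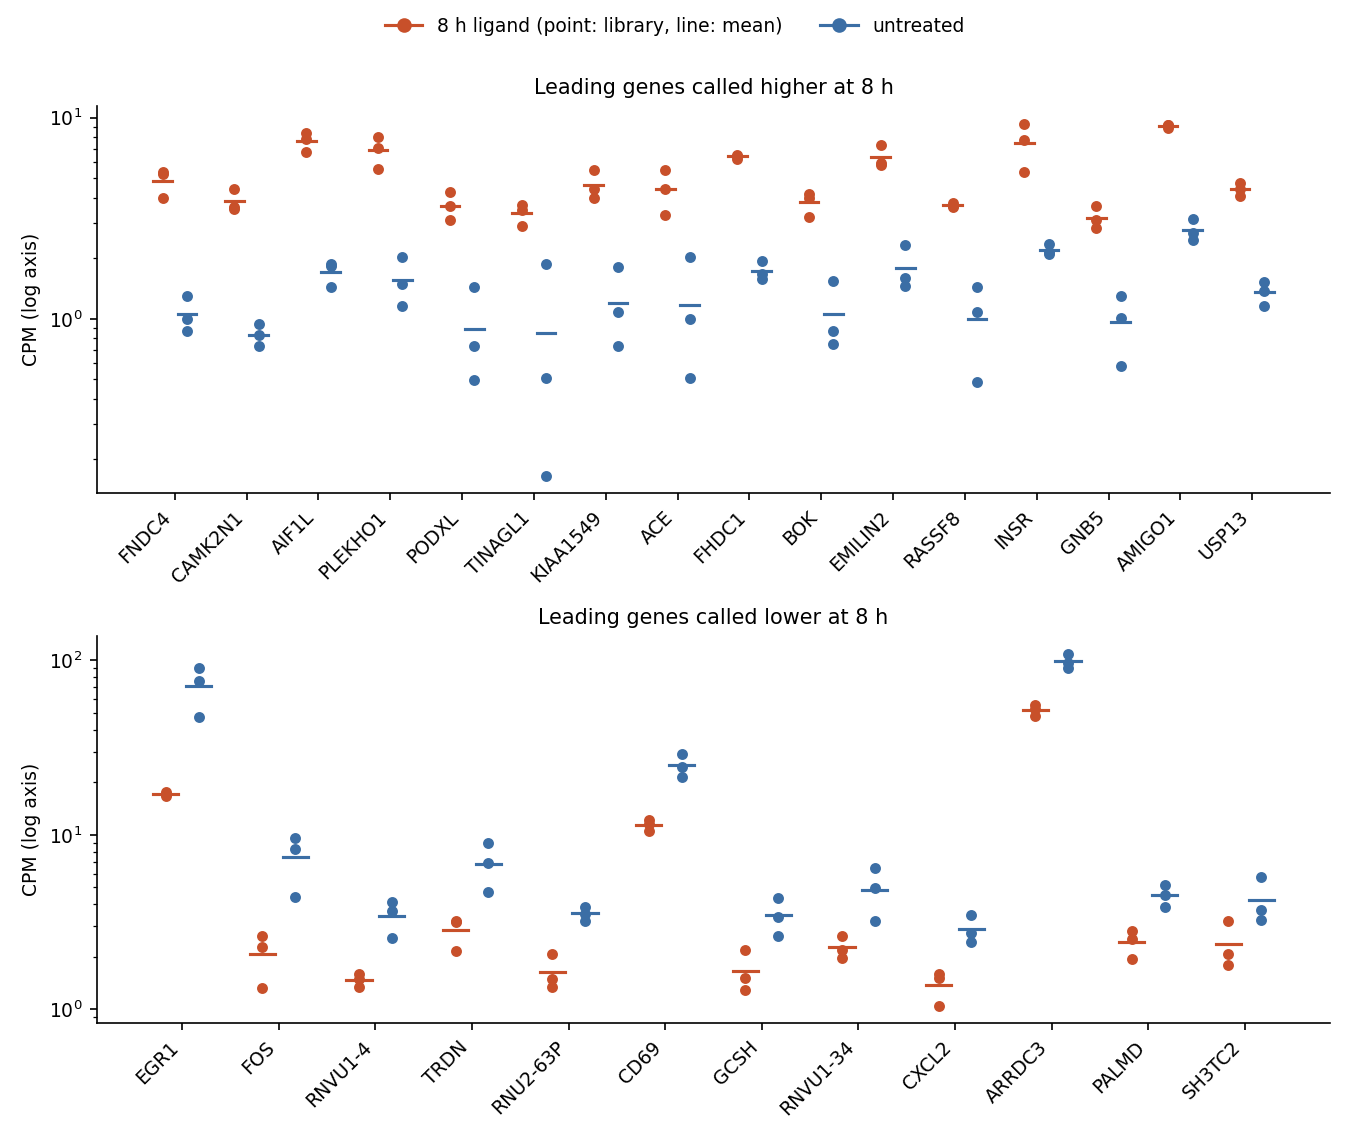
Level in CPM (log axis) of the 16 leading genes called higher (top) and the 12 leading genes called lower (bottom) in each library, with the 8 h libraries (red) left of the untreated ones (blue); points are libraries and lines are means. In each of these genes the 8 h and untreated points do not overlap, a condition of the choice of genes.

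Promoters of the risen genes were rich in CpG dinucleotides. In a window from 250 bases before to 50 bases after the start of each gene, 89.7% of the risen genes, 46.9% of the fallen genes and 76.1% of all genes tested met a GC content of at least 50% and a ratio of observed to expected CpG of at least 0.6. The median window held 33 CpG in risen, 14 in fallen and 26 in all genes. Among protein-coding genes alone the shares were 91.2% of 513 risen genes, 53.1% of 32 fallen genes and 85.0% of 11668 tested. Since CpG-rich promoters are also those of highly expressed genes, the shares were read by untreated level. Among coding genes under 1 CPM, 92% of the risen genes had such a promoter, against 66.8% of all, and from 1 to 5 CPM 88.8% against 69.2%. The shares were 93.7% against 81.6% from 5 to 20 CPM, and 93.2% against 90.9% above 20 CPM. Seen the other way, 24.1% of coding genes with a CpG-rich promoter and 4.25% of those without one rose among genes under 1 CPM, and 19.1% and 5.41% rose from 1 to 5 CPM. The filter on low counts used all 15 libraries, so genes under 1 CPM in untreated cells could be tested through their ligand libraries. This can raise the shares that rose there. No test was made of these shares. Promoters of 3 risen and 2 fallen genes follow as examples. They are RefSeq promoter sequences of build GRCh38.p14, read 5′ to 3′ on the strand of the gene, with each CG in capitals. The windows are chr2:27495151-27495450 (minus strand) for FNDC4, chr19:7294365-7294664 (minus) for INSR, chr15:40929090-40929389 (plus) for DLL4, chr6:123636901-123637200 (minus) for TRDN and chr1:99645863-99646162 (plus) for PALMD.
FNDC4: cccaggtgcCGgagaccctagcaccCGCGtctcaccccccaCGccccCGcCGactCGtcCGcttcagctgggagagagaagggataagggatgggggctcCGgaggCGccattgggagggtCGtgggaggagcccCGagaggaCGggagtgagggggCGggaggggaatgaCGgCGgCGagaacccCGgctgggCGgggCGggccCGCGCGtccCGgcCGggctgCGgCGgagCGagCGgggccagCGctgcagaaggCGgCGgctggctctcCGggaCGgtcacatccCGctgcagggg
INSR: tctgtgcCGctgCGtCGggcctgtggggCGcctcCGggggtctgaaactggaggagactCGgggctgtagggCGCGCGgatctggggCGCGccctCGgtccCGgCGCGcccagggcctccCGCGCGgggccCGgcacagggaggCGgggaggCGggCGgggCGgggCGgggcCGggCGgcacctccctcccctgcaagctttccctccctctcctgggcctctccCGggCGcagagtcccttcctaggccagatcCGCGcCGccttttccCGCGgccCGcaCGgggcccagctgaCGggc
DLL4: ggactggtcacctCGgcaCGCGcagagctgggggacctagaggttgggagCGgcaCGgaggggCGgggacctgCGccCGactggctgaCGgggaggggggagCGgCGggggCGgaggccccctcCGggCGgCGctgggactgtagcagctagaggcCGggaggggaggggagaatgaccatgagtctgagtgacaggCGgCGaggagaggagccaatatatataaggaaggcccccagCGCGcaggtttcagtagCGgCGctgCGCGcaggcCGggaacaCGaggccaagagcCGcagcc
TRDN: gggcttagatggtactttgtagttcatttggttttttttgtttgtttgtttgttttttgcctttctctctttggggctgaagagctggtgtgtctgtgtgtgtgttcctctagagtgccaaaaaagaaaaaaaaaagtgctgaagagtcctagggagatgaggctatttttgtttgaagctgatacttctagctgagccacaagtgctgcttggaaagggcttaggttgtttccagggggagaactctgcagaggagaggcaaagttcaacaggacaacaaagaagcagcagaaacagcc
PALMD: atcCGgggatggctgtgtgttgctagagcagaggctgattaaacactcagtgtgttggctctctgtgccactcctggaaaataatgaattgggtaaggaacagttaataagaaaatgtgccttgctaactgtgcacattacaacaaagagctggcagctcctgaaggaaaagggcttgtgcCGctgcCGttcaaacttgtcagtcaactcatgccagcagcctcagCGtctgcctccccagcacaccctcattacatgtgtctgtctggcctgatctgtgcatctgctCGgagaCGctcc
The risen FNDC4, INSR and DLL4 windows hold 35, 36 and 27 CG, while the fallen TRDN window holds 0 and the PALMD window 6. Both fallen windows lie far under the median of 23 for fallen genes with a RefSeq window. The contrast between these examples is therefore larger than that between the medians. The RefSeq table holds a promoter for 394 of the 535 risen genes (73.6%), too few for the shares above, which were read from the hg38 genome at GENCODE release 44 starts for all 616 called genes. In the RefSeq promoters the motif CG, which reads the same on both strands, occurs at least once in 99.5% of risen, 97.3% of fallen and 99.2% of all genes with a window, with medians of 31, 23 and 26.

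Developmental transcription factors, the textbook targets of Polycomb repression, rose in 7 of the 45 tested members, where 3.68% of all genes rose, and fell in none, with a median log2 fold change of 0.42. Their median in untreated cells was 4.87 CPM, and 205 of the 1380 protein-coding genes between 1 and 5 CPM there were called higher. The list's share of 15.6% was near that of genes at this level, and no excess over it was tested. GATA6, a zinc finger factor of endoderm and heart, had the largest fold, at 1.43, 1.19 and 0.944 CPM in the 8 h libraries, against 0.145, 0.249 and 0.081 CPM in untreated cells (log2 fold change 2.87, SE 0.509, adjusted p = 0.000894). Every 8 h library was above every untreated one, all at or near the low end of what these libraries measure. FOXD1, a forkhead factor of kidney stroma, had 1.2, 1.34 and 0.850 CPM at 8 h, against 0.289, 0.249 and 0.486 CPM in untreated cells (log2 fold change 1.75, adjusted p = 0.00731). FOXD2 (1.06), the neural crest factor PAX3 (0.82), GATA5 (0.80), TBX1 (0.71) and SOX18 (0.61) made up the rest of the called members. The calls of GATA5 and SOX18 each ended without any 1 of 5 libraries, all but 8 h library 1. That of PAX3 ended without 8 h library 1, 8 h library 3, untreated library 1 or untreated library 2, that of TBX1 without 8 h library 3, untreated library 1 or untreated library 3, that of FOXD1 without 8 h library 2 and that of FOXD2 without untreated library 2. This count fell to 4 without 8 h library 2, to 4 without 8 h library 3 and to 3 without untreated library 1. The 13 HOX genes tested gave no call, with a median of 0.08.

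Genes of the Notch pathway, in which membrane ligands on 1 cell activate a receptor on the next, rose in 6 of 22 tested members, where 3.68% of all genes rose, and fell in none (median log2 fold change 0.55). These genes had a median of 2.61 CPM in untreated cells, and 205 of the 1380 protein-coding genes between 1 and 5 CPM there were called higher. DLL4, a Notch ligand of vessels and blood cells, had 1.73, 2.64 and 2.55 CPM at 8 h, against 0.506, 0.331 and 0.405 CPM in untreated cells (log2 fold change 2.45, SE 0.303, adjusted p = 2.79e-05). LFNG, the Fringe glycosyltransferase that modifies Notch receptors, had 0.977, 0.746 and 1.61 CPM at 8 h, against 0.145, 0.331 and 0.081 CPM in untreated cells (log2 fold change 2.47, adjusted p = 0.00404). The receptor NOTCH2 measured 6.61, 4.67 and 6.61 CPM at 8 h, against 1.66, 2.57 and 1.38 CPM in untreated cells (log2 fold change 1.66, SE 0.276, adjusted p = 0.000527). Ligand, modifying enzyme and receptor thus each stood clear of their untreated libraries. Among the HES repressors HES1, a known Notch target, had 36.8, 40.4 and 55.2 CPM at 8 h, against 21.2, 32.3 and 25.6 CPM in untreated cells (log2 fold change 0.74, adjusted p = 0.00571). HES2 (1.66) and HES4 (0.85) were called as well. Members not called included HES6 (0.40), HEY1 (0.41), HEYL (1.05, adjusted p = 0.0657) and NRARP (0.31). The HES1 call ended without 8 h library 3, where the log2 fold change was 0.56, and that of HES4 ended without each of 4 libraries (8 h libraries 2 and 3, untreated libraries 1 and 2).

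WNT pathway genes rose in 8 of 24 tested members, where 3.68% of all genes rose, and fell in none (median 0.32). The list's untreated median was 7.44 CPM, and 127 of 2151 protein-coding genes from 5 to 20 CPM there were called higher. All called members except TCF7 averaged under 5 CPM there. Of protein-coding genes, 205 of 1380 from 1 to 5 CPM and 137 of 781 under 1 CPM were called higher. TCF7, a transcription factor that carries WNT signals to DNA, had 15.7, 18.3 and 16.8 CPM at 8 h, against 9.40, 8.45 and 8.02 CPM in untreated cells (log2 fold change 0.98, SE 0.132, adjusted p = 6.69e-05). FZD7, a Frizzled receptor for WNT ligands, had 6.61, 7.41 and 5.95 CPM at 8 h, against 3.25, 3.23 and 4.29 CPM in untreated cells (log2 fold change 0.90, adjusted p = 0.00141). Neither gene's groups overlapped. FZD3, another Frizzled receptor, was counted 23 times in the 8 h libraries and 3 times in the untreated ones, a ratio of 6.66 with a 95% interval of 2.01 to 34.7 that covers counting error only. The intracellular WNT inhibitor NKD1 (1.51), FZD9 (1.48), the ligand WNT11 (1.33), FZD2 (0.95) and FZD8 (0.78) were the others. The count was 4 members without 8 h library 2, 8 h library 3 or untreated library 2, and 2 without untreated library 1. Leaving out any 1 of the 6 libraries ended the WNT11 call, and any but 8 h library 3 that of FZD8. The calls of NKD1 and FZD2 each ended without 8 h library 2, 8 h library 3, untreated library 1 or untreated library 2. That of FZD9 ended without 8 h library 3, untreated library 1 or untreated library 2, and that of FZD3 without 8 h library 1, untreated library 1 or untreated library 3.

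Receptor tyrosine kinases rose in 6 of 18 tested members, where 3.68% of all genes rose, and none fell (median 0.51). The list's untreated median was 3.23 CPM, and 205 of 1380 protein-coding genes from 1 to 5 CPM there were called higher. INSR, the insulin receptor (chr19:7112255-7294414), had 9.32, 7.76 and 5.38 CPM at 8 h, against 2.10, 2.15 and 2.35 CPM in untreated cells (log2 fold change 1.78, SE 0.213, adjusted p = 1.94e-05). ERBB3, a receptor for neuregulins, measured 6.01, 4.87 and 5.38 CPM at 8 h, against 1.45, 1.49 and 2.11 CPM in untreated cells (log2 fold change 1.68, SE 0.25, adjusted p = 0.000179). KIT, the receptor for stem cell factor, had 6.61, 4.08 and 3.78 CPM at 8 h, against 2.53, 1.49 and 2.19 CPM in untreated cells (log2 fold change 1.21, adjusted p = 0.00469). The 8 h libraries of INSR and KIT were spread, with library 1 highest, and still cleared every untreated value. MERTK, which binds apoptotic cells through bridging ligands, rose with a log2 fold change of 1.32, IGF1R with 0.65 and the collagen receptor DDR1 with 0.60. IGF1R missed the fold threshold without untreated library 2, and DDR1 missed it without 8 h library 2 or untreated library 2.

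Of 16 growth factor ligands tested, 4 rose and none fell, while the median log2 fold change was 0.01. Among all genes 3.68% rose. The list's untreated median was 15.5 CPM, and 127 of 2151 protein-coding genes from 5 to 20 CPM there were called higher. All called ligands except PDGFA averaged under 5 CPM there. Of protein-coding genes, 205 of 1380 from 1 to 5 CPM and 137 of 781 under 1 CPM were called higher. PDGFA, a ligand of the platelet-derived growth factor receptors, had 25.1, 28.5 and 30.1 CPM at 8 h, against 8.75, 10.4 and 9.80 CPM in untreated cells (log2 fold change 1.53, SE 0.123, adjusted p = 2.27e-07). The lowest 8 h value was above 2-fold of the highest untreated value. KITLG, the ligand of KIT, had 1.65, 1.19 and 0.944 CPM at 8 h, against 0.289, 0.746 and 0.567 CPM in untreated cells (log2 fold change 1.26, adjusted p = 0.0352). HBEGF, a ligand of the EGF receptor family, rose with a log2 fold change of 1.02 and PDGFB with 0.85. The KITLG call ended without 8 h library 1, 8 h library 2, untreated library 1 or untreated library 3, and that of PDGFB without 8 h library 2, 8 h library 3 or untreated library 2. The count was 2 without 8 h library 2. Genes that feed back on MAP kinase signalling rose in 5 of 14 tested members and fell in none (median 0.62). Their untreated median, 15.9 CPM, lay in the same range of 5 to 20 CPM. ERRFI1, an inhibitor of EGF receptors, had a log2 fold change of 1.2. The others were the phosphatase DUSP5 (0.94), ETV5 (0.68), SPRY4 (0.65) and IL17RD (1.84). ERRFI1 measured 14.6, 14.7 and 12.3 CPM at 8 h, against 6.94, 5.22 and 5.99 CPM in untreated cells (adjusted p = 7.29e-06). IL17RD, at 0.977, 0.845 and 1.13 CPM at 8 h, against 0.0723, 0.497 and 0.243 CPM in untreated cells, lost its call without 8 h library 3 or untreated library 1, and SPRY4 lost it without untreated library 2.

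In the TGF-beta and BMP pathway 2 of 25 tested members rose (median 0.35), where 3.68% of all genes rose. The list's untreated median was 20.1 CPM, and both risen members averaged between 5 and 20 CPM there. Of protein-coding genes in that range 127 of 2151 were called higher, and 44 of 7356 above 20 CPM. Both risen members are intracellular inhibitors of the pathway. Members not called included BAMBI (0.38), SKIL (0.42) and SKI (0.16). SMAD6 measured 23.1, 24.0 and 28.6 CPM at 8 h, against 10.1, 7.12 and 11 CPM in untreated cells (log2 fold change 1.41, SE 0.136, adjusted p = 1.84e-06). SMAD7 had 10.7, 10.0 and 11.8 CPM at 8 h, against 4.99, 5.63 and 5.83 CPM in untreated cells (log2 fold change 0.98, SE 0.141, adjusted p = 0.000137). The groups stood apart in both. Without untreated library 3, 4 members were called. Of 27 guidance genes, 6 rose (median 0.48), led by the semaphorin SEMA6B at 2.18, 2.68 and 3.59 CPM at 8 h, against 1.16, 0.911 and 0.567 CPM in untreated cells (log2 fold change 1.64, adjusted p = 0.00142). The ephrins EFNB2 (0.91), EFNA4 (0.78) and EFNA3 (0.75), the semaphorin SEMA6C (0.88) and the plexin PLXNA2 (0.76) were the other 5. The guidance list had an untreated median of 7.33 CPM, and 127 of 2151 protein-coding genes from 5 to 20 CPM there rose. All called guidance genes except PLXNA2 averaged under 5 CPM there. Of protein-coding genes, 205 of 1380 from 1 to 5 CPM and 137 of 781 under 1 CPM rose. EFNA3 lost its call without any single library, EFNB2 without each except 8 h library 1, and PLXNA2 without 8 h library 3.

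Among cadherins and protocadherins, 2 of 9 rose (median 0.32), where 3.68% of all genes rose. The list's untreated median was 7.61 CPM, and 127 of 2151 protein-coding genes from 5 to 20 CPM there were called higher. PCDH1, a protocadherin of epithelia and endothelium, had 36.3, 40.7 and 43.3 CPM at 8 h, against 13.7, 16.1 and 16.8 CPM in untreated cells (log2 fold change 1.37, SE 0.0955, adjusted p = 4.14e-08). Both groups had a narrow spread. CDH24 (0.62) was the other, and its call ended without untreated library 1. Of 17 collagen and laminin genes, LAMC1, a laminin chain of basement membranes, rose, with 0.977, 0.945 and 1.13 CPM at 8 h, against 0.217, 0.0828 and 0.243 CPM in untreated cells (log2 fold change 2.40, adjusted p = 0.0045). The collagen and laminin list had an untreated median of 1.90 CPM and a median log2 fold change of -0.01. Of protein-coding genes from 1 to 5 CPM there, 205 of 1380 were called higher.

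Blood lineage lists differed in how many genes rose, where 3.68% of all genes did. Untreated medians were 117 CPM for the erythroid, 44.1 CPM for the megakaryocyte and 38.1 CPM for the stem and progenitor list. Of protein-coding genes above 20 CPM there, 44 of 7356 were called higher. The called GP6, ITGB3, KIT and RUNX2 averaged under 20 CPM there. Of protein-coding genes, 127 of 2151 from 5 to 20 CPM were called higher. So were 205 of 1380 from 1 to 5 CPM and 137 of 781 under 1 CPM. Of 35 erythroid genes tested none rose, and the median was -0.02. Of 11 megakaryocyte genes 2 rose (median 0.19). GP6, the collagen receptor of platelets, had 9.02, 9.60 and 8.41 CPM at 8 h, against 4.12, 4.23 and 4.05 CPM in untreated cells (log2 fold change 1.13, adjusted p = 0.000234). ITGB3, the beta chain of the platelet fibrinogen receptor, had 14.2, 12.3 and 17.9 CPM at 8 h, against 7.66, 8.20 and 6.72 CPM in untreated cells (log2 fold change 0.96, adjusted p = 0.000506). Both platelet genes were separated from their untreated libraries. Of 15 stem and progenitor genes, KIT and RUNX2 (1.51) rose, and RUNX2 lost its call without 8 h library 2 or untreated library 1 or 2. No myeloid gene of 10 and no lymphoid marker of 4 tested was called, although 1 myeloid gene was called without untreated library 1. None of the 8 fibroblast and epithelial markers tested was called (median 0.29), with KRT8 at a log2 fold change of 0.40 and KRT19 at 0.45.

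Cell-cycle inhibitors rose in 2 of 8 tested members, where 3.68% of all genes rose. None of 32 cell cycle genes was called, save 1 when untreated library 3 was left out. Untreated medians were 51.2 CPM for the inhibitors and 255 CPM for the cell cycle genes. Of protein-coding genes above 20 CPM there, 44 of 7356 were called higher. The 2 called inhibitors averaged between 5 and 20 CPM there, where 127 of 2151 protein-coding genes were called higher. CDKN1A, the p21 inhibitor of cyclin-dependent kinases, had 30.4, 30.8 and 26.7 CPM at 8 h, against 14.1, 11.4 and 14.4 CPM in untreated cells (log2 fold change 1.14, SE 0.102, adjusted p = 6.25e-07). CDKN1C, the related p57 inhibitor, had 23.7, 27.5 and 32.4 CPM at 8 h, against 14.4, 13 and 13.4 CPM in untreated cells (log2 fold change 1.03, SE 0.147, adjusted p = 0.000135). Both were clear of their untreated libraries, while the median of the 8 inhibitors was -0.05. MHC and antigen presentation genes gave 2 calls of 13 (median 0.31), HLA-C (0.83) and the peptide transporter TAP1 (0.76), and neither was robust. The count was 0 without 8 h library 2 or untreated library 2, and 1 without 8 h library 3 or untreated library 1. The untreated median of this list was 8.07 CPM, and 127 of 2151 protein-coding genes from 5 to 20 CPM there rose. The hypoxia list of 18 gave 1 call, NDRG1 (0.84), and the integrated stress response list of 23 gave ATF3 (0.82), with a list median of 0.20, and 2 stress response genes were called without 8 h library 3 or untreated library 3. No call was made among 28 sterol and fatty acid synthesis genes, 19 interferon response genes, 11 germline genes, 13 mitochondrially encoded genes or 4 aryl hydrocarbon receptor targets, of which 1 was called without 8 h library 1.

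Among the 6 risen genes with the highest CPM and no overlap were 3 heat shock genes. DNAJB1, a cochaperone of HSP70, had 272, 291 and 265 CPM at 8 h, against 168, 172 and 177 CPM in untreated cells (log2 fold change 0.68, SE 0.0946, adjusted p = 9.46e-05). HSPA1A, a stress-inducible HSP70, had 386, 415 and 340 CPM at 8 h, against 204, 222 and 196 CPM in untreated cells (log2 fold change 0.88, adjusted p = 0.0402). HSPA1B had 246, 268 and 214 CPM at 8 h, against 134, 128 and 123 CPM in untreated cells (log2 fold change 0.92, adjusted p = 0.0167). All 3 genes were higher in every 8 h library, but HSPA1A and HSPA1B are near-identical copies whose reads may have been split between them. Left-out libraries ended the HSPA1A call in all 6 cases (adjusted p 0.071 to 0.126) and the HSPA1B call without 8 h library 2, untreated library 1 or untreated library 2, which left 1 called heat shock gene without each of these 3 libraries. The median of the 15 heat shock genes was -0.03. BHLHE40, a basic helix-loop-helix repressor, had 179, 183 and 214 CPM at 8 h, against 98.8, 89.8 and 110 CPM in untreated cells (log2 fold change 0.95, adjusted p = 6.25e-07). CAVIN1, a coat protein of caveolae, had 315, 345 and 306 CPM at 8 h, against 175, 173 and 205 CPM in untreated cells (log2 fold change 0.81, adjusted p = 3.07e-05). TPM4, a tropomyosin of the actin cytoskeleton, rose by 0.60 on the log2 scale, close to the threshold, which it missed without 8 h library 1 or untreated library 3.

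**Figure D3:**
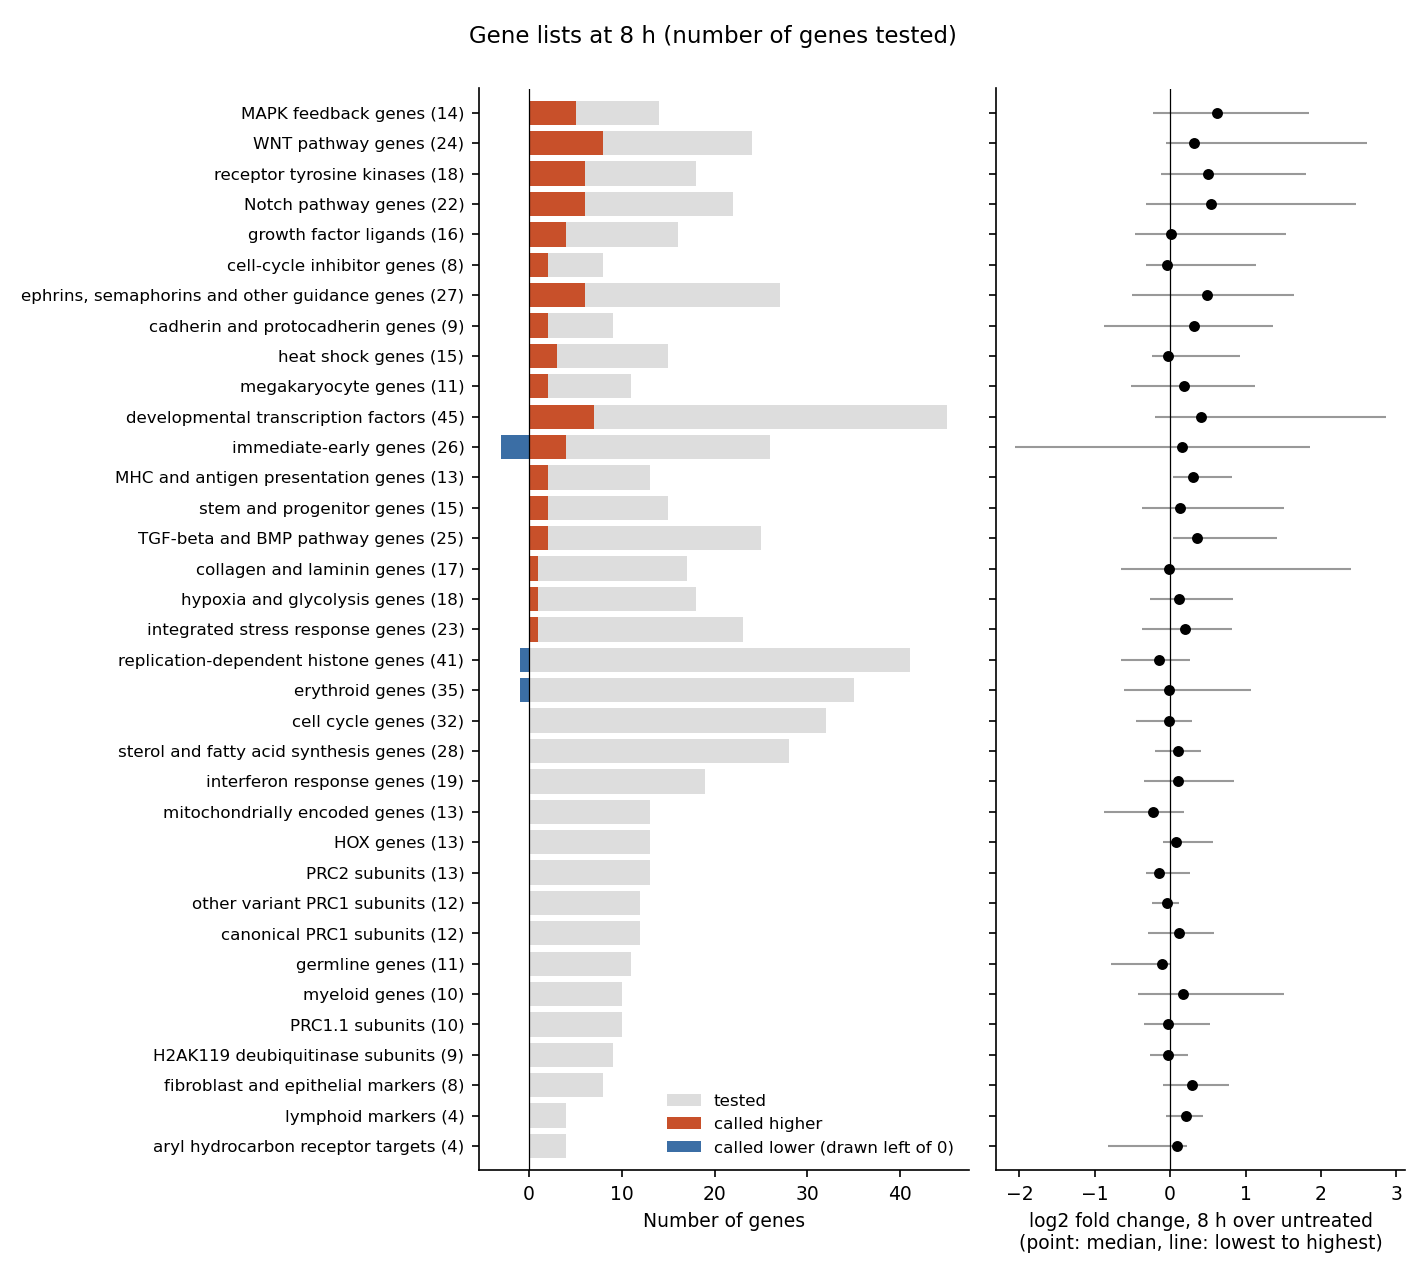
Number of genes tested (grey), called higher (red) and called lower (blue, left of 0) at 8 h in each gene list (left), and the median log2 fold change at 8 h over untreated of each list with its lowest and highest member (right). Lists of signalling genes such as the WNT (8 of 24) and Notch (6 of 22) lists hold several called genes, while the lists of Polycomb subunits hold none. The untreated median was 7.44 CPM in the WNT list and 2.61 CPM in the Notch list. It was 39.2 to 138 CPM in the Polycomb and H2A deubiquitinase lists. Among protein-coding genes from 1 to 5 CPM, 205 of 1380 were called higher. This was 127 of 2151 from 5 to 20 CPM and 44 of 7356 above 20 CPM.

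Genes called lower included immediate-early genes, which serum and stress switch on within minutes. EGR1, a zinc finger factor of this class (chr5:138465479-138469303), had 17.7, 17.1 and 16.7 CPM at 8 h, against 90.4, 47.6 and 76.2 CPM in untreated cells. The 8 h libraries were nearly equal and the untreated ones spread widely, and the log2 fold change was -2.06 (SE 0.302, adjusted p = 0.00166). FOS, which pairs with JUN in the AP-1 factor, had 2.63, 2.29 and 1.32 CPM at 8 h, against 8.31, 4.39 and 9.64 CPM in untreated cells (log2 fold change -1.80, SE 0.392, adjusted p = 0.00927). Untreated library 2 was the lowest of its group for both genes. CCN1 was also called lower (-0.71), without 8 h library 2 or untreated library 1 no longer so. In the same list of 26 genes KLF2 (1.85), the AP-1 member FOSL2 (1.1), the antiproliferative BTG2 (0.84) and ATF3 (0.82) rose, so that 4 members were higher and 3 lower, with a median of 0.15. Of all genes tested, 3.68% were called higher and 0.558% lower. FOSL2 had 22.5, 21.9 and 26 CPM at 8 h, against 9.25, 10.4 and 13 CPM in untreated cells (adjusted p = 2.39e-05). KLF2, at 0.752, 1.09 and 1.04 CPM at 8 h and 0.145, 0.331 and 0.324 CPM in untreated cells, lost its call without 8 h library 2 or untreated library 1.

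CD69, an early activation antigen of blood cells, had 12.1, 11.6 and 10.5 CPM at 8 h, against 29.1, 24.4 and 21.6 CPM in untreated cells (log2 fold change -1.13, SE 0.147, adjusted p = 5.29e-05). ARRDC3, an arrestin-domain adaptor, had 48.3, 52.6 and 55.5 CPM at 8 h, against 109, 90.7 and 97.2 CPM in untreated cells (log2 fold change -0.93, SE 0.0831, adjusted p = 6.25e-07). TRDN, triadin of the calcium release complex in muscle, had 3.23, 3.18 and 2.17 CPM at 8 h, against 6.87, 8.95 and 4.70 CPM in untreated cells (log2 fold change -1.23, SE 0.241, adjusted p = 0.00222). All 3 had no overlap between the groups, a condition of the choice of genes. PALMD, a palmdelphin, had 1.95, 2.54 and 2.83 CPM at 8 h, against 4.55, 5.14 and 3.89 CPM in untreated cells (log2 fold change -0.89), and its call ended without 8 h library 1 (adjusted p = 0.0516). The chemokine CXCL2 (-1.04) lost its call without any 1 of 5 libraries, all but untreated library 3 (adjusted p 0.0694 to 0.158), SH3TC2 (-0.86) without 8 h library 1, 8 h library 2 or untreated library 2, and GCSH (-1.08), a glycine cleavage protein with pseudogene copies, without 8 h library 2.

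Among the 6 fallen genes with the highest CPM and no overlap were 2 splicing factors. SRSF6, a splicing factor of the SR family, had 100, 97.8 and 101 CPM at 8 h, against 153, 177 and 143 CPM in untreated cells (log2 fold change -0.66, adjusted p = 1.87e-05). SRSF5, another SR protein, had 80.2, 84.1 and 91.6 CPM at 8 h, against 148, 168 and 142 CPM in untreated cells (log2 fold change -0.84, adjusted p = 7.29e-06). The groups were far apart for both, although SRSF6 missed the fold threshold without untreated library 2 (log2 fold change -0.57). MIR17HG, the host transcript of a microRNA cluster, had 50.7, 39.4 and 49.0 CPM at 8 h, against 87.2, 66.8 and 82.5 CPM in untreated cells (log2 fold change -0.77, adjusted p = 0.0031). H4C9, a replication-dependent histone gene, had 62.1, 67.2 and 63.3 CPM at 8 h, against 88.0, 108 and 107 CPM in untreated cells (log2 fold change -0.65), and was the 1 called member of 41 histone genes (median -0.14). Without untreated library 1 or untreated library 3 the histone list held 2 called members. The variant U1 RNAs RNVU1-4 (-1.23) and RNVU1-34 (-1.08) and the U2 copy RNU2-63P (-1.14) fell, and are uncertain because reads of such multicopy genes can be split among copies. RNVU1-34 lost its call without 8 h library 1, 8 h library 3 or untreated library 1.

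Protein-coding genes made up 95.9% of the risen genes, 39.5% of the fallen genes and 80.5% of all genes tested. The fallen genes held 29 long noncoding RNAs, 8 snRNAs and 3 snoRNAs. Of 31 snRNAs tested 8 fell and none rose, with a median log2 fold change of -0.97, where 0.558% of all genes fell. Of 44 snoRNAs tested 3 fell and none rose (median -0.21). The 2 rRNA genes (median -1.71) and 2 mitochondrial rRNA genes (-0.52) tested gave no call. Reads of multicopy snRNA genes can be split among copies, so the snRNA falls are uncertain gene by gene.

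Against the cells at 2 h of ligand, 508 genes (3.5% of those tested) were called at 8 h, 415 higher and 93 lower, and 969 genes (6.67%) were called at 24 h against 8 h, 695 higher and 274 lower. These tests share the 8 h libraries with the comparison above, so that values are given side by side. AIF1L averaged 1.71 CPM in untreated cells, 2.71 CPM at 2 h, 7.65 CPM at 8 h, 14.8 CPM at 24 h and 17.8 CPM at 72 h, with tests of 1.51 for 8 h over 2 h and 0.94 for 24 h over 8 h. ERBB3 had 2.06, 1.70 and 1.30 CPM at 2 h, 6.01, 4.87 and 5.38 CPM at 8 h and 8.59, 6.91 and 9.91 CPM at 24 h. Its level at 2 h overlapped the untreated one, and it was called at 8 h over 2 h (1.69, adjusted p = 0.000148) and again at 24 h over 8 h (0.66, adjusted p = 0.0208). PDGFA averaged 9.66 CPM in untreated cells, 30.7 CPM at 2 h and 27.9 CPM at 8 h. FHDC1 was highest at 2 h, and was lower at 24 h than at 8 h (log2 fold change -0.68). The largest rises at 8 h over 2 h under the naming rule were those of PODXL (1.78), HSPA1B (1.75), KIAA1549 (1.72), ERBB3, the myosin motor MYO5A (1.68) and HSPA1A (1.57).

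Of the 26 immediate-early genes, 3 were called lower at 8 h than at 2 h and 0 higher. Of all 14524 genes tested, 93 were called lower and 415 higher. FOSB, an AP-1 member, had 2.25, 2.34 and 1.79 CPM at 8 h, against 15.4, 17.8 and 13.9 CPM at 2 h (log2 fold change 8 h over 2 h -2.85, SE 0.292, adjusted p = 1.43e-05). NAB2, a corepressor that binds EGR1 and is not in that list, had 13.2, 14.7 and 13.9 CPM at 8 h, against 31.3, 38.5 and 31.4 CPM at 2 h (-1.27, SE 0.141, adjusted p = 1.14e-05). Both genes were higher in every 2 h library. SRSF6 had 100, 97.8 and 101 CPM at 8 h, against 215, 214 and 226 CPM at 2 h (-1.13). SRSF5 (-1.12), P2RY11 (-1.54) and FOS (-1.32) completed the leading falls at 8 h over 2 h. EGR1 had 19.2, 22.6 and 14.8 CPM at 2 h, 17.7, 17.1 and 16.7 CPM at 8 h and 56.2, 61.3 and 29.3 CPM at 24 h. Its low level was thus shared by 2 h and 8 h, and the 24 h libraries were higher (log2 fold change 24 h over 8 h 1.51).

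**Figure D4:**
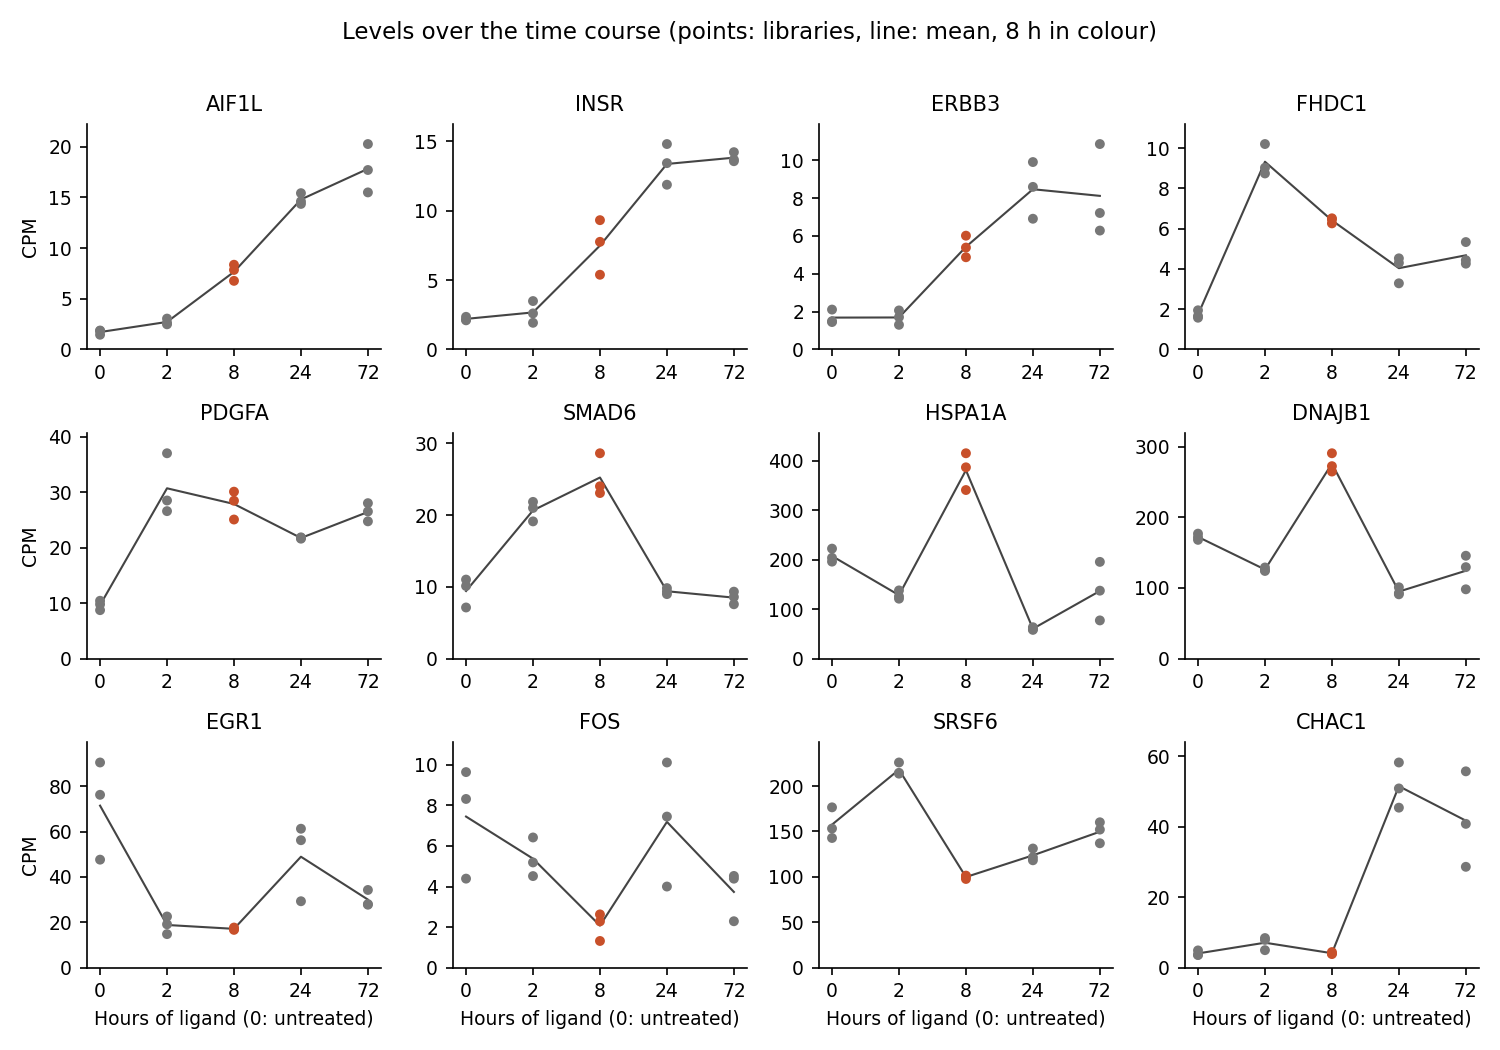
Level in CPM of 12 genes in each library of the KDM2B time course, from untreated (0) through 2, 8, 24 and 72 h of ligand; points are libraries, lines join the means and the 8 h libraries are red. HSPA1A and DNAJB1 peak at 8 h, EGR1 and FOS have their lowest means there, and CHAC1 is high at 24 h and 72 h but not at 8 h.

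Stress genes separated 8 h from 24 h. HSPA1A had 121, 126 and 138 CPM at 2 h, 386, 415 and 340 CPM at 8 h and 59.5, 58.0 and 63.4 CPM at 24 h (log2 fold change 24 h over 8 h -2.66, SE 0.256, adjusted p = 4.39e-05). DNAJB1 had 125, 124 and 129 CPM at 2 h, 272, 291 and 265 CPM at 8 h and 101, 91 and 92.7 CPM at 24 h (-1.54, SE 0.0968, adjusted p = 7.47e-09). Both were higher at 8 h than in any library of the other 4 time points. Of 15 heat shock genes, 4 were called higher at 8 h than at 2 h, and 7 lower at 24 h than at 8 h. Of all 14524 genes tested, these counts were 415 and 274. CHAC1, a glutathione-degrading target of ATF4, had 45.4, 50.9 and 58.3 CPM at 24 h, against 3.91, 4.47 and 4.06 CPM at 8 h (3.62, SE 0.244, adjusted p = 3.12e-07). Of 23 integrated stress response genes 22 were called higher at 24 h than at 8 h (median 1.60), against 1 called at 8 h over untreated. Among all 14524 genes tested, 695 were called higher at 24 h than at 8 h. DDIT4 (2.72), ASS1 (2.86), SCN4A (2.85), G0S2 (2.69) and ADM2 (2.48) were the other leading rises at 24 h over 8 h. SMAD6 returned to 9.35, 9.83 and 8.99 CPM at 24 h (24 h over 8 h -1.42, adjusted p = 3.31e-07), and HSPA1B (-2.49), CNN1 (-1.25) and NRAV (-1.23) were the other leading falls.

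The same genes were then read in libraries that share no sample with this comparison. In K562 cells with a degron on BCOR, 192 of the 511 risen genes tested there were called higher at 8 h of ligand, which is 37.6% of them and 58.9% of the genes called higher in that table, where 2.38% of genes tested in both tables were called higher. The median log2 fold change of the 511 was 0.60, and 486 were above 0. In lines named EV in the labels, ligand over DMSO gave 245 of 530 (46.2% of the risen genes, 55.2% of that table's list, background 3.08%, median 0.70). In dLRRS lines it gave 277 of 530 (52.3%, 57.2% of the list, background 3.35%, median 0.80). Ligand over DMSO in the table that also tests the EZH2 inhibitor GSK343 gave 181 of 498 (36.3%, 59.2% of the list, background 2.32%, median 0.76), and 153 of 455 in KDM2B-mAID cells of another table (33.6%, 57.5% of the list, background 2.27%, median 0.67). None of the risen genes was called lower in any of these 5 comparisons. The sources used here give no treatment times for the tables other than the BCOR one.

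In the other construct lines almost none of these genes was called with ligand. Of 530 risen genes tested, LF lines gave 0 called higher (background 0.00693%, median 0.12), SF lines 1 (background 0.0208%, median 0.11) and dCxxC lines 0 (background 0.0208%, median 0.04). The labels do not spell out these names. RNA counted as KDM2B averaged 2386 ± 146 CPM in LF, 898 ± 25 in SF, 2929 ± 166 in dLRRS, 3622 ± 60.6 in dCxxC and 82.1 ± 2.36 in EV cells with DMSO (SD, n = 3 each). In DMSO, before any ligand, the lines already differed from EV in the same genes. Lower than in EV were 195 of the 530 in LF (background 8.42%, median -0.51), 277 in SF (background 9.49%, median -0.81) and 186 in dLRRS (background 7.4%, median -0.49). Higher than in EV were 321 of 530 in dCxxC (background 10.1%, median 0.85). Ligand library 1 of EV stood apart with few counts, and without it 246 of 533 risen genes were called higher in EV.

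**Figure D5:**
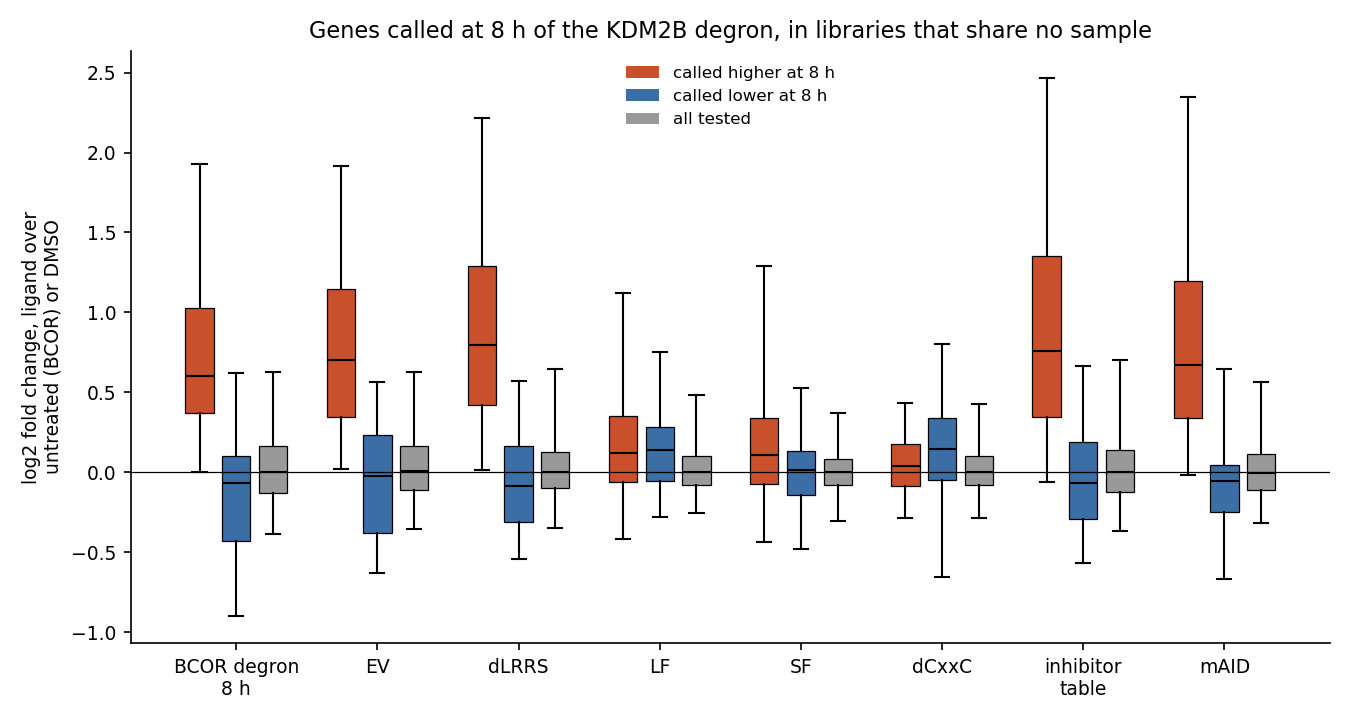
Log2 fold change with ligand over untreated (BCOR degron) or over DMSO (the other groups), in libraries outside this comparison, of the genes called higher at 8 h (red), called lower (blue) and all genes tested (grey); boxes span the 25th to 75th percentiles, lines in them are medians and whiskers reach the 5th and 95th percentiles. The red medians lie between 0.60 and 0.80 for the BCOR, EV, dLRRS, inhibitor and mAID comparisons, and between 0.04 and 0.12 for LF, SF and dCxxC.

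Of the 16 leading risen genes, all 16 were called higher with the BCOR degron at 8 h, 14 in EV, 13 in dLRRS, 12 of 15 tested in the inhibitor table and 8 of 14 in the KDM2B-mAID table, with 1 in SF and 0 in LF and dCxxC. AIF1L had log2 fold changes of 1.52 with the BCOR degron, 2.22 in EV, 2.27 in dLRRS, 2.55 in the inhibitor table and 2.56 in the KDM2B-mAID table. INSR, at 1.18, 1.27, 1.37, 2.14 and 1.91 in the same order, was also the gene called in SF (1.5, adjusted p = 0.0251). PCDH1 had 1.93, 1.40, 2.80, 1.89 and 1.51, and GATA6 had 2.65, 2.75 and 1.92 in the BCOR, EV and dLRRS comparisons and 3.27 in the KDM2B-mAID table. CDKN1A was called in EV (0.79), dLRRS (1.61), the inhibitor table (1.41) and the KDM2B-mAID table (1.47), and not with the BCOR degron (0.94, adjusted p = 0.135). SMAD6, by contrast, was called in none of the 8 comparisons, with log2 fold changes between -0.32 and 0.31.

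Few of the fallen genes were called lower in these tables. With the BCOR degron it was 5 of the 73 tested there (6.85% of them and 13.5% of that list, background 0.27%), in EV 3 of 80 (background 0.291%) and in dLRRS 1 of 80 (background 0.194%), while the inhibitor table gave 1 of 61 (background 0.242%) and the KDM2B-mAID table gave 1 of 37 (background 0.162%). Called higher were 1 of the 73 with the BCOR degron, 0 of 80 in EV, 3 of 80 in dLRRS, 2 of 61 in the inhibitor table and 1 of 37 in the KDM2B-mAID table. Their median log2 fold changes there lay between -0.09 and -0.02. EGR1 was at 1.29 with the BCOR degron (adjusted p = 0.263), -0.30 in EV and 0.39 in dLRRS, and none of these passed both thresholds. FOS was called higher in dLRRS (0.62, adjusted p = 0.00986) and TRDN higher in the inhibitor table (1.55, adjusted p = 0.0463). The heat shock genes HSPA1A, HSPA1B and DNAJB1 were not called in any of these tables, with HSPA1A at -0.06 with the BCOR degron, 0.37 in EV and 0.31 in the inhibitor table. For EGR1, ARRDC3 and SRSF6, a difference between the fall here and the other tables was not tested.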

How the data were processed

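Total RNA was isolated with RNeasy kits and made into libraries with KAPA RNA HyperPrep kits with riboErase, per the labels' protocols, and sequenced on a NextSeq500. The submitters' processing notes name STAR, the hg38 genome and DESeq2, and for 1 table Trim Galore 0.6.7. The sources used here do not give the counting program, strand setting, ligand dose or annotation release. Without a known strand setting, reads of a gene and of an antisense partner cannot be told apart. The authors deposited the KDM2B, BCOR, construct and inhibitor tables as raw counts per gene. The KDM2B-mAID table holds expected counts, as the authors deposited them, which were rounded to whole numbers.

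Each table was fitted on its own with edgeR 4.0.16 (R 4.3.3) over all its libraries: filterByExpr, TMM factors, a robust quasi-likelihood model and Benjamini-Hochberg adjustment over all genes tested. Calls took an adjusted p under 0.05 together with a log2 fold change beyond 0.585 in either direction, the thresholds in the labels' protocols. The KDM2B fit had 10 residual degrees of freedom and a common biological coefficient of variation of 0.0857. SE is the log2 fold change over the square root of F. Gene values are CPM after TMM, not divided by gene length, so they compare libraries and not genes. The KDM2B columns were assigned to groups by name, and library numbers are column numbers. The method was tested on simulated counts.

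Named genes had at least 2 CPM on average, no overlap between groups and a symbol that is no clone, locus or pseudogene name. They were the 16 largest rises, the 12 largest falls and the 6 with the highest CPM in each direction among 360 eligible higher and 30 eligible lower genes, and for 8 h over 2 h and 24 h over 8 h the 6 largest each way. For 1 gene that this rule names, the result is not reported here. The members, the 35 gene lists and the other tables were chosen with earlier results of these data known. Called list members were named too, and examples from the tables of other libraries were picked after their values were seen.

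Same-numbered 8 h and untreated libraries had correlations of 0.13, -0.11 and -0.12 in their deviations from the group means, so the number was not taken as a pairing there. For 8 h with 2 h (0.19, 0.17, 0.27) and with 24 h (0.15, 0.16, 0.33) every such correlation was over 0.1, the condition set for a pairing. The values reported for these comparisons come from the fit without the block, and the counts with it are in the closing section. Alternatives were other filters, DESeq2 1.42.0 size factors and test, 2 groups only, no fold threshold, a replicate block and each library left out.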

Additional observations from a re-analysis of the deposited data

Results flagged for a closer look

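Levels at 8 h that differed from those at 2 h or at 24 h of ligand, by the test of that difference in the same fit, are listed here for genes named at 8 h. In all, 508 genes differed between 8 h and 2 h, and 969 between 24 h and 8 h. Both tests use the 8 h libraries.

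Higher at 8 h than at 2 h were PODXL (log2 difference 1.78), HSPA1B (1.75), KIAA1549 (1.72), HSPA1A (1.57), FNDC4 (1.54), INSR (1.52), AIF1L (1.51) and ACE (1.5). CAMK2N1 (1.45), GNB5 (1.35), EMILIN2 (1.21), DNAJB1 (1.13), BOK (0.95), PLEKHO1 (0.80), USP13 (0.79) and AMIGO1 (0.62) were higher too. Lower at 8 h than at 2 h were SRSF5 (-1.12), SRSF6 (-1.13) and FOS (-1.32).

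Higher at 24 h than at 8 h were CD69 (1.92), CXCL2 (1.77), FOS (1.76), EGR1 (1.51), TRDN (1.06), ARRDC3 (0.97), AIF1L (0.94) and INSR (0.82). Lower at 24 h than at 8 h were FHDC1 (-0.68), DNAJB1 (-1.54), HSPA1B (-2.49) and HSPA1A (-2.66).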

How the results depend on the processing

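Counts of called genes at 8 h over untreated were 672 without a filter, 504 with a stricter one, 611 with DESeq2 size factors, 530 with the DESeq2 test and 525 with the libraries of the 2 groups only, against 616 reported. Without a fold threshold 1561 genes (1050 higher, 511 lower) passed at 8 h over untreated, 2122 at 8 h over 2 h and 3398 at 24 h over 8 h, and of the risen genes 364 were called higher with the BCOR degron and 472 in EV. With the libraries of the 2 groups only, the BCOR count was 121, against 192 reported.

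Leaving out 1 library at a time gave 403 (without 8 h library 2) to 649 genes at 8 h over untreated, 370 to 483 at 8 h over 2 h and 785 to 949 at 24 h over 8 h. For the risen genes called higher in other tables it gave 151 to 188 with the BCOR degron, 179 to 246 in EV, 120 (without ligand library 3) to 167 in the table with GSK343, and 116 to 146 in the KDM2B-mAID table. With the replicate number as a block, 652 genes were called at 8 h over untreated, 550 at 8 h over 2 h and 1002 at 24 h over 8 h. For 8 h over untreated the number is only a number, and no library there can be paired. Of the named and listed genes called, HLA-C lost its call under the block (adjusted p = 0.0503).

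Of 98 named or listed genes that were called, 59 kept the call in every alternative in which they were tested, and no direction turned in any. A gene not tested in an alternative was not counted as lost there. LFNG was tested in 11 of the 13 alternatives and GATA6 in 12. The alternative without a fold threshold used the same fit and could not end a call. At library totals of 10.43 M counts and above, genes under about 1 CPM rest on few counts, which limits the calls of GATA6, FZD3, LFNG and similar genes. The cause of each change was not tested.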

Other observations

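Other members of the SR splicing factor family, looked at after the falls of SRSF5 and SRSF6 were seen, were not called. The median log2 fold change of the 11 SRSF genes tested was -0.25 at 8 h over untreated, and SRSF7 stood at -0.51 (adjusted p = 0.000262), under the fold threshold. At 8 h over 2 h the median was -0.33, with 2 of the 11 called lower.

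Risen genes were spread over the chromosomes. The share of tested genes called higher was 5.30% on chromosome 17 and 5.16% on chromosome 1, the highest of those tabulated, and 0.617% on chromosome 21 and 1.77% on chromosome X, the lowest. These shares were not tested.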
